A study of Mus musculus with 16 samples.

Results

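The 7 genes described here, Otx2, Fgf5, Pou3f1, Lef1, Sall2, Sox4 and Cdh2, are associated with the formative and primed states that mouse embryonic stem cells enter on leaving naive pluripotency. They were taken by symbol from a table of 24978 gene symbols, using for each symbol the line that spans the most bases. Nascent RNA was measured by Bru-seq, in which RNA made during a 30 min pulse of 2 mM bromouridine is captured with an anti-BrdU antibody and sequenced. The cells were F121-9, a hybrid mouse embryonic stem cell line with one 129 and one castaneus (cast) genome, and edited clones of it, in a study of cis elements that control the time and place of DNA replication. Per the labels' protocols the hybrid cells were kept in DMEM with 2i and LIF, so every library, the parental ones included, came from medium that holds cells in the naive state. Only reads that cover a sequence difference between the genomes were counted, which gives each gene one value for the 129 copy and one for the cast copy.

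The 16 libraries fell into 12 groups. Of these, 4 had 2 libraries: the parental F121-9, abc.del, c.del and ab.del. The groups a.del, b.del, ac.del, bc.del, 4k.b.c, 100kdel, 245kdel and 680kinv had 1 library each. The letters name deleted sites, and the other names read as 2 deletions, an inversion and a 4k.b.c edit; the labels give neither the positions nor the edited copy. Each edited library's label ends in a code that reads as a clone (ab.del replicate 1 and b.del share one), so in the single-library groups the edit and the clone cannot be told apart. The labels do not say whether the F121-9 libraries came from separate cultures, and p-values then measure only the spread between these samples. The accession numbers form 2 runs of 8 libraries, called deposit blocks below, whose meaning the labels do not state. All F121-9 and abc.del libraries are in the first block, which also holds 680kinv, bc.del and the first replicates of ab.del and c.del. Reads over 1 line per gene ranged from 8.96 M to 32.05 M per library (median 16.4 M), and replicates correlated at r = 0.951 to 0.978 over genes. Libraries of different groups correlated at 0.919 to 0.989, so replicates were no more alike than many other pairs.

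In naive cells a network of transcription factors, among them Esrrb, Tfcp2l1 and Klf4, holds the ground state, and 2i supports it by blocking MEK and the kinase GSK3. When that support is withdrawn, Otx2 redirects enhancers, Pou3f1 and Fgf5 come on in the formative epiblast-like state, and Cdh2 (N-cadherin) rises further into the primed state. Lef1 is a DNA-binding partner of beta-catenin in canonical Wnt signalling, the pathway that inhibition of GSK3 activates. Sox4 is an SRY-related factor active in many progenitor cells, and Sall2 is a spalt-family zinc finger protein.

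Most variation lay in Lef1, and the starts that RefSeq gives for it differ in composition. The 250 bases before 2 of its starts, and before the Fgf5 start for comparison, are printed to show the sequence ahead of the counted gene bodies (RefSeq, GRCm38.p6, 5′ to 3′ on the gene's strand, CpG dinucleotides in capitals).
Lef1, chr3:131110047-131110296, plus strand: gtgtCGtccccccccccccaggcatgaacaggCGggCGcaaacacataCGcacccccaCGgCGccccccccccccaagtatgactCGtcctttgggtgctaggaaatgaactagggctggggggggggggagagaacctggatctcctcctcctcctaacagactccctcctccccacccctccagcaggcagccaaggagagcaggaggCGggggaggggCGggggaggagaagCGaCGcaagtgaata
Lef1, chr3:131112541-131112790, plus strand: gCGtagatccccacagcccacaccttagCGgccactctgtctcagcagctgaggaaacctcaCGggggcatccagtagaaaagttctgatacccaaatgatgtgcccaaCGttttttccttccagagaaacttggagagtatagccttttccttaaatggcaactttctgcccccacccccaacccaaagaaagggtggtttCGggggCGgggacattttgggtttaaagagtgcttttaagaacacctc
Fgf5, chr5:98253934-98254183, plus strand: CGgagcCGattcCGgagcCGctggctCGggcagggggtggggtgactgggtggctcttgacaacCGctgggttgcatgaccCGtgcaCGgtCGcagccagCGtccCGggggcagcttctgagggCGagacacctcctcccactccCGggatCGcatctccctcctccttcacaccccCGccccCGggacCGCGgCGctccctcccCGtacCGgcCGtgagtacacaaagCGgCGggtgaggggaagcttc
The Lef1 window at the start of the counted line had a GC content of 66.4% and 11 CpGs, and the one ahead of the later start had 50.8% and 6 CpGs. The Fgf5 window held 24 CpGs at a GC content of 70.8%. Over 32851 starts the medians were 52.4% GC and 6 CpGs. RefSeq windows were found for 5 of the 7 genes (12 starts). The TCF/LEF letters CTTTGAT and CTTTGAA and the octamer ATGCAAAT, searched on both strands, were in none of these 12 windows, against 3.21%, 4.46% and 1.6% of all starts. The OTX letters TAATCC were in 1, an Otx2 start, against 6.25% of all starts. The deposited lines do not separate the Lef1 starts. The line from the first start had 31.4 CPM on average and the one from the later start 30.7 CPM. CPM are reads per 1000000 counted over all deposited lines, where genes with several lines count more than once.

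The genes spanned a wide range of output. Cdh2 (chr18:16588877-16809246, minus strand, mm10) had a mean of 36.2 ± 11.03 CPM (SD over 16 libraries, mean of both copies) and Lef1 (chr3:131110297-131224357, plus strand) 31.4 ± 35.2 CPM. Sox4 (chr13:28948920-28953699, minus) had 1.42 ± 0.812 CPM, Otx2 (chr14:48657677-48667644, minus) 0.695 ± 0.490 CPM and Fgf5 (chr5:98254184-98277033, plus) 0.506 ± 0.464 CPM. Sall2 (chr14:52311177-52328670, minus) had 0.177 ± 0.116 CPM, and Pou3f1 (chr4:124657646-124660655, plus) 10 reads in all libraries together. Per kb of gene span, Sox4 had 0.297 CPM, Lef1 0.275, Cdh2 0.164, Otx2 0.0697 and Fgf5 0.0221, so the order changed once length was divided out. The median of the 14094 genes tested was 0.400 CPM per kb, above all 5 of these genes. These levels between genes also depend on how many sequence differences each gene holds, which was not measured.

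Genes entered the tests with a mean of at least 0.2 CPM over all 16 libraries, and 5 of the 7 did; Sall2 and Pou3f1 did not. All 10 Pou3f1 reads came from the cast copy, in 5 libraries, and its 129 copy was listed at 0 in all 16. Sall2 rested on 95 reads and ran from 0.0195 CPM in F121-9 replicate 1 to 0.443 CPM in F121-9 replicate 2. Its lowest and highest libraries were thus the 2 unedited ones, and no difference between groups could be read from it. Where a library had 0 reads, the limit of 3 reads lay between 0.0833 and 0.296 CPM on the 129 copy, and between 0.0905 and 0.329 CPM on the cast copy. In cell populations such as these, fewer cells of a type and less RNA per cell cannot be told apart.

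**Figure D1:**
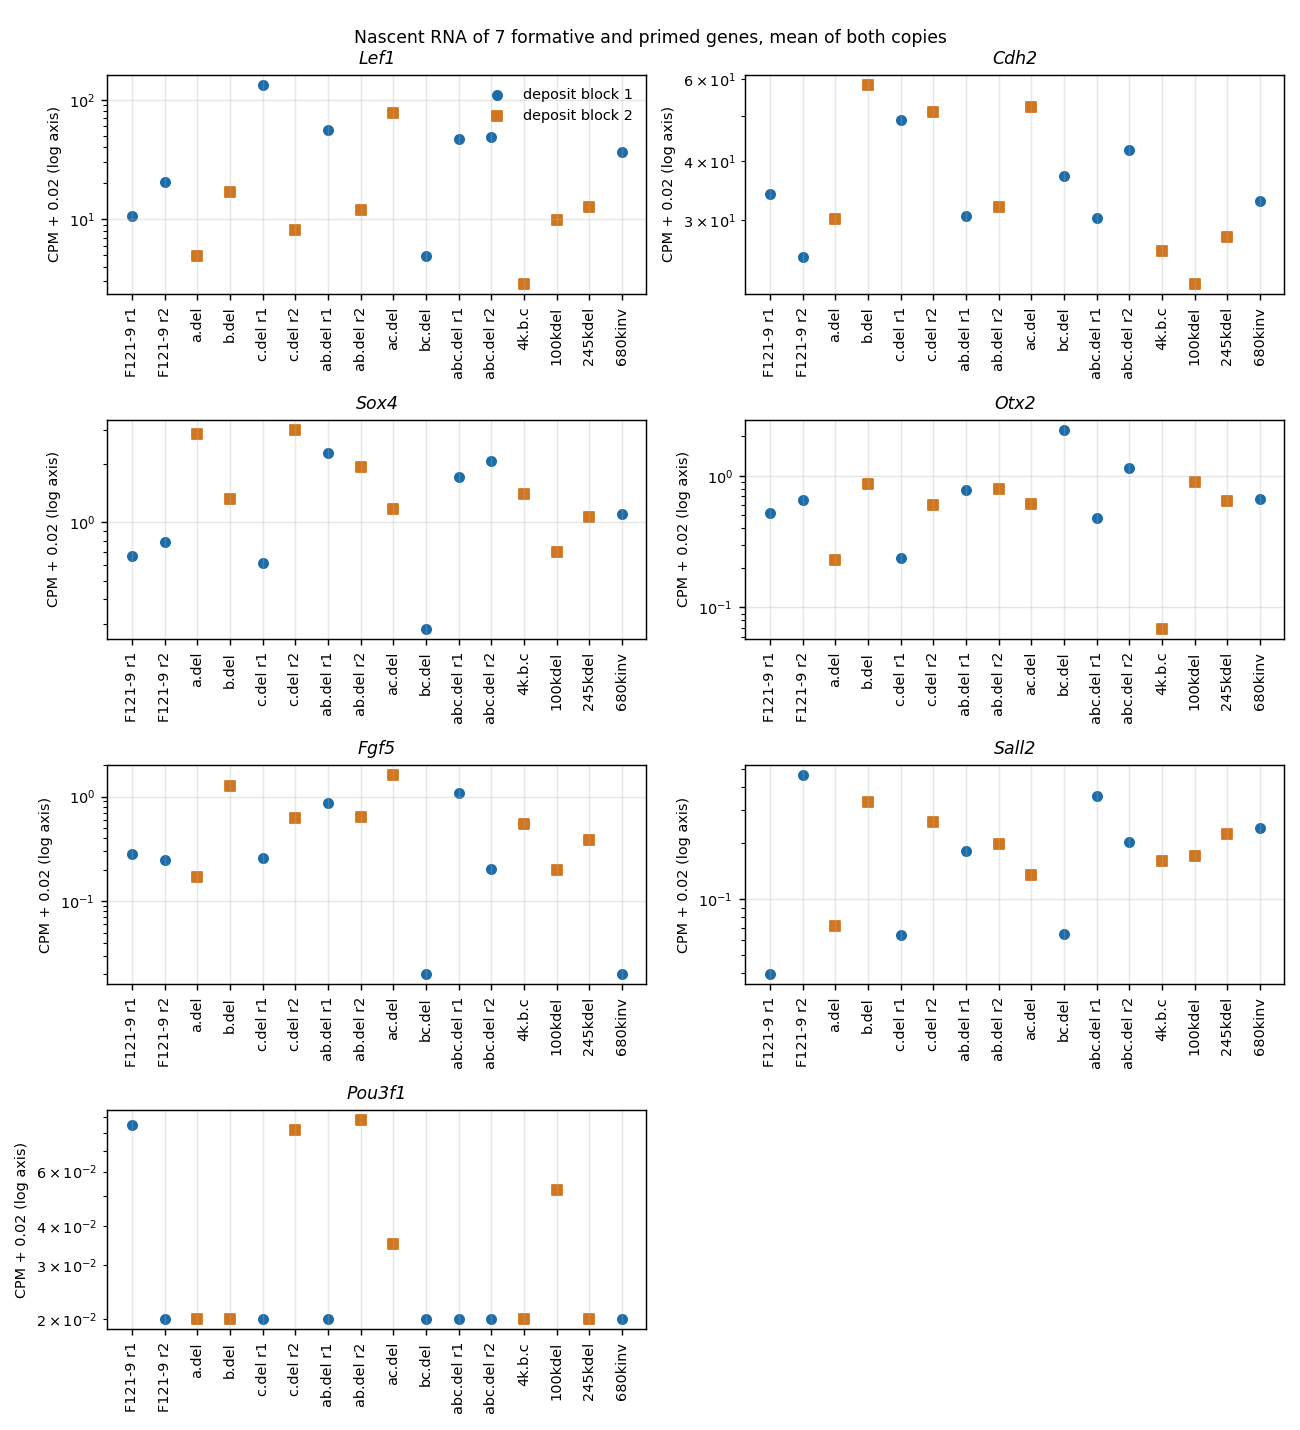
Mean of both copies in CPM + 0.02 (log axis, own scale per gene) for each of the 7 genes in each of the 16 libraries; r1 and r2 are replicates, circles the first deposit block and squares the second. Lef1 runs from 2.83 to 134 CPM, Cdh2 from 21.8 to 58.3 CPM, and Pou3f1 lies at 0 in 11 libraries.

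Lef1 varied most. The unedited F121-9 libraries had 10.5 and 20.4 CPM. The abc.del libraries had 46.6 and 48.8 CPM, both above F121-9 and close to each other. The ab.del libraries had 55.4 and 11.99 CPM, and the c.del libraries 134 and 8.14 CPM, so 1 replicate of each lay above both F121-9 libraries and the other below the F121-9 mean of 15.4 CPM. The first-block ab.del and c.del replicates were the high ones.

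Among the groups with 1 library, ac.del had 77.6 CPM and 680kinv 36.4 CPM. b.del had 16.7, 245kdel 12.5 and 100kdel 9.90 CPM. The lowest values were 4.92 CPM in a.del, 4.91 in bc.del and 2.83 in 4k.b.c. Lef1 thus spanned 47.4-fold from 4k.b.c to c.del replicate 1, a wider log2 range than 99.2% of the genes tested, whose median range was 1.77 log2 units. Replicates of c.del differed 16.5-fold, of ab.del 4.62-fold, of F121-9 1.93-fold and of abc.del 1.05-fold. In order of group means, ac.del, c.del, abc.del, 680kinv, ab.del and b.del stood above F121-9. The c.del and ab.del means of 71.3 and 33.7 CPM carried SDs of 89.3 and 30.7 CPM (n = 2), so their places in that order are not settled by their spread, and a.del and bc.del were alike at the lower end.

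The copies of Lef1 did not move alike. On the 129 copy the F121-9 libraries had 4.05 and 5.15 CPM, and 10 of the 14 edited libraries lay above both, 2 below both and 2 between. On the cast copy F121-9 had 17.0 and 35.6 CPM, and 6 edited libraries lay above both, 6 below both and 2 between. The median gene had 6 edited libraries above and 4 below on either copy. The 129 copy was highest in ac.del (53.3 CPM) and c.del replicate 1 (48.9 CPM). The cast copy was highest in c.del replicate 1 (220 CPM) and ac.del (102 CPM) and lowest in 4k.b.c (2.42 CPM) and bc.del (4.86 CPM). In b.del the copies went apart, with 15.9 CPM from 129, above F121-9, and 17.5 CPM from cast, inside its range. The ratios of group means to F121-9 were 6.02 on 129 and 2.58 on cast in abc.del, 4.32 and 1.81 in ab.del, and 6.02 and 4.37 in c.del. The ab.del and c.del ratios rest on replicate 1: on cast, replicate 2 had 14.1 CPM in ab.del and 9.73 CPM in c.del, below both F121-9 libraries.

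**Figure D2:**
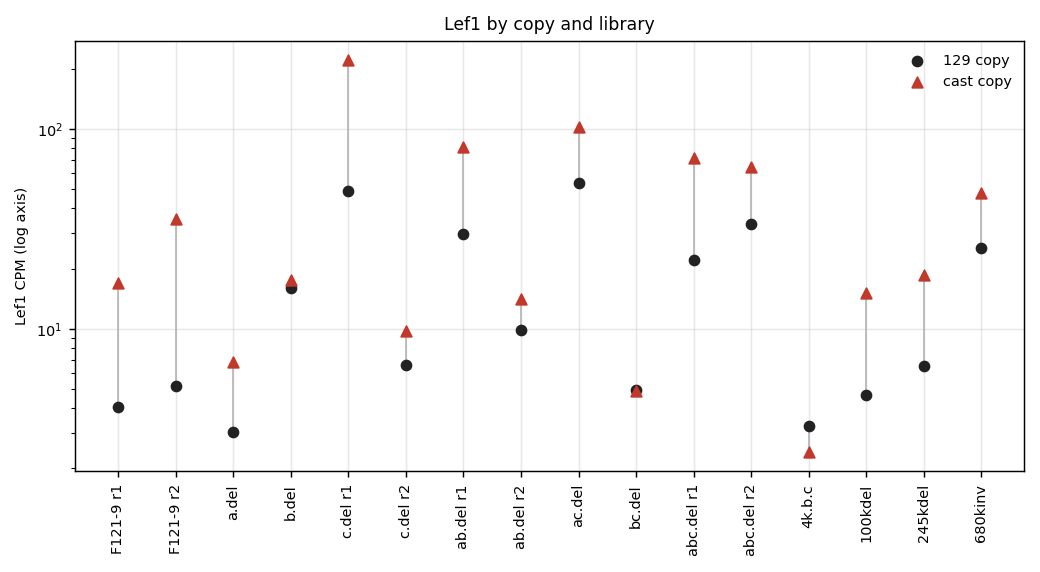
Lef1 CPM (log axis) from the 129 copy (circles) and the cast copy (triangles) in each library; a grey line joins the copies of a library. The cast copy is above the 129 copy in 14 of 16 libraries, and in bc.del and 4k.b.c it is below.

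The share of Lef1 reads from 129 was 20.8% in F121-9 replicate 1 (95% Wilson interval 17.5 to 24.6) and 13.9% in replicate 2 (11.4 to 16.9). It reached 58.3% in 4k.b.c (45.7 to 69.9), 52.2% in bc.del (43.1 to 61.2) and 51.0% in b.del (45.7 to 56.3). These are shares of raw reads, and the 129 copy had more reads in total in these libraries. By CPM, which divides by each copy's total, the shares were 57.3%, 50.5% and 47.65%, so cast was the higher copy in b.del. The second ab.del and c.del replicates had 42.2% and 41.7%, and the first ones 28.1% and 19.4%. These intervals cover counting error only. Lef1 on cast was lower than in F121-9 in 4k.b.c and bc.del, so the larger 129 shares there went with a low cast output; whether the share differs between groups was not tested.

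The cast copy of chromosome 3, which carries Lef1, stood apart in 2 libraries. The median of its 524 genes was 0.93 log2 units above F121-9 on cast in c.del replicate 1 and 1.07 above in ac.del, and between -0.05 and 0.26 in the other edited libraries. These 2 libraries also held the highest Lef1 values. In c.del replicate 1, Lef1 was 3.15 log2 units above F121-9 on cast and 3.39 above on 129, where the chromosome median was -0.19. In ac.del, Lef1 was 2.05 above on cast and 3.52 above on 129, against a 129 median of 0.14. On both copies the Lef1 difference was larger than the chromosome median. Each case is a single library, and the part of the chromosome's cast output in the Lef1 values was not tested.

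**Figure D3:**
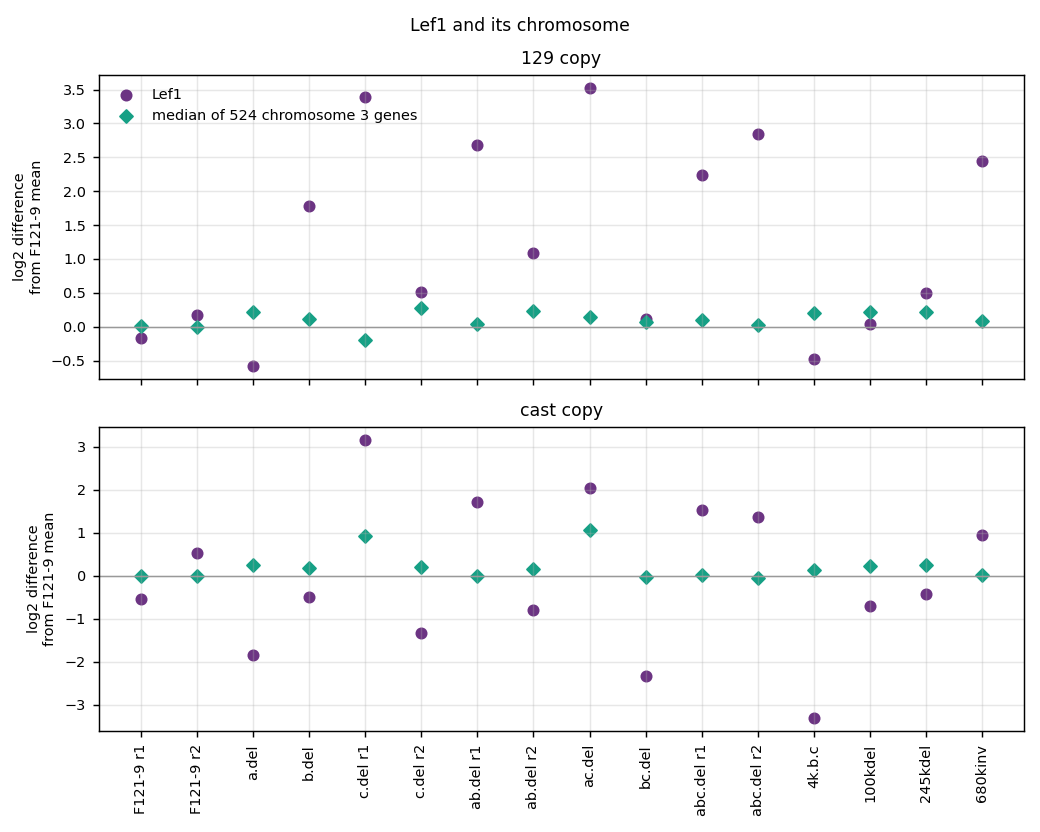
Log2 difference from the F121-9 mean for Lef1 (circles) and for the median gene of chromosome 3 (diamonds), on the 129 copy (top) and the cast copy (bottom) in each library. The chromosome median stays between -0.19 and 0.27 on 129 and leaves 0 clearly on cast only in c.del replicate 1 (0.93) and ac.del (1.07), while Lef1 spreads over several log2 units on both copies.

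Genes beside Lef1 varied less than Lef1 did. Hadh, a mitochondrial enzyme of fatty acid oxidation whose gene lies next to Lef1, ran from 26.7 CPM in 4k.b.c to 72.1 CPM in c.del replicate 1, the libraries that also held the lowest and highest Lef1. Papss1, which makes the sulfate donor of the cell, ran from 6.31 to 24.1 CPM. Ostc, a subunit of the oligosaccharyltransferase, ran from 14.7 to 23.2 CPM. On the log2 scale with 0.1 added, Hadh spanned 2.69-fold, Papss1 3.77-fold and Ostc 1.58-fold, against 45.8-fold for Lef1. Of the other tested genes nearby, Cyp2u1, with a mean of only 0.368 CPM, spanned 8.35-fold, Rpl34 (with the same values as the overlapping Rpl34-ps1) 4.65-fold and Sgms2 3.29-fold. Over the 16 libraries Pearson's r with Lef1 was 0.79 for Hadh and 0.70 for Papss1. Genes of the same library share its depth.

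Otx2 was low in all libraries and rested on 374 reads. F121-9 had 0.499 and 0.632 CPM, abc.del 0.457 and 1.12, ab.del 0.767 and 0.777, and c.del 0.216 and 0.576. The ab.del libraries lay just above F121-9, the abc.del libraries on both sides of it, and c.del replicate 1 below it. bc.del stood highest at 2.22 CPM (counting interval 1.65 to 2.93), mostly from cast, which gave 3.60 CPM against 0.839 from 129. 4k.b.c stood lowest at 0.0484 CPM, which is 1 read, and a.del had 0.207 CPM.

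Fgf5, the secreted growth factor used to mark the formative state, rested on 323 reads. F121-9 had 0.263 and 0.225 CPM, abc.del 1.06 and 0.181, ab.del 0.847 and 0.624, and c.del 0.241 and 0.603. Only the ab.del pair lay wholly above F121-9 among these 3 edited groups. ac.del had 1.59 CPM and b.del 1.23 CPM, the highest values. 680kinv and bc.del had 0 reads. With the limit of 3 reads in their place, they lay 3.12-fold and 1.87-fold below the F121-9 mean. These folds leave out the counting error of F121-9, which had 13 and 7 reads. Its counting intervals, 0.140 to 0.450 and 0.0906 to 0.464 CPM, overlapped that of bc.del (0 to 0.160 CPM). The interval of 680kinv (0 to 0.0962 CPM) overlapped that of F121-9 replicate 2.

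Sox4 had 0.650 and 0.769 CPM in F121-9, 1.69 and 2.06 in abc.del, 2.26 and 1.92 in ab.del, and 0.596 and 2.99 in c.del. Both abc.del and both ab.del libraries were above F121-9, and c.del had one library below it and one that was the highest of all. a.del followed with 2.86 CPM, and bc.del was lowest at 0.261 CPM. Over the mean of both copies, 11 of 14 edited libraries lay above both F121-9 libraries and 2 below, against 6 and 4 for the median gene.

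Cdh2 was the steadiest of the 5 genes. F121-9 had 34.1 and 24.9 CPM, abc.del 30.3 and 42.3, ab.del 30.5 and 31.8, and c.del 48.9 and 50.9. The c.del pair lay wholly above F121-9, and the ab.del pair lay inside its range. b.del (58.3 CPM) and ac.del (52.2 CPM) were the highest libraries and 100kdel (21.8 CPM) the lowest, a 2.67-fold span. The log2 range was wider than that of 38.0% of the genes tested.

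Without the deposit block in the fit, and with the 4 groups fitted together, no member passed in a comparison of edited groups with F121-9; the fits in which Lef1 passed follow below. One limma model held the 4 groups of 2 libraries, with p-values adjusted over all 14094 genes and a threshold of 0.05. In abc.del against F121-9, 0 of the 5 members passed, where 0.22% of all genes passed. The log2 differences were 1.70 for Lef1 (SE 1.11, limma adjusted p 0.644), 1.28 for Sox4 (SE 0.69, adjusted p 0.567), 0.73 for Fgf5 (adjusted p 0.776), 0.32 for Otx2 (adjusted p 0.899) and 0.30 for Cdh2 (adjusted p 0.718). At an unadjusted limma p of 0.05 it was also 0 of 5, against 1445 of 14094 genes. By the adjusted p of edgeR and of DESeq2 it was 0 too, with Sox4 at an unadjusted DESeq2 p of 0.0496. Without abc.del replicate 1 the Fgf5 difference was -0.29, and without abc.del replicate 2 the Otx2 difference was -0.25.

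In ab.del against F121-9, 0 of 5 members passed (background 0.0497%), and 0 by the adjusted p of edgeR and of DESeq2. At an unadjusted limma p of 0.05 it was also 0, against 1099 of 14094 genes, while Sox4 had an unadjusted p of 0.0495 by edgeR and 0.0311 by DESeq2. Sox4 differed by 1.44 log2 units (limma adjusted p 0.656), Fgf5 by 1.27 (0.710), Lef1 by 0.81 (0.847), Otx2 by 0.40 (0.872) and Cdh2 by 0.10 (0.924). Without ab.del replicate 1 the Lef1 difference was -0.29.

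In c.del against F121-9, 0 of 5 members passed (background 0.0497%), and 0 by the adjusted p of edgeR and of DESeq2. Cdh2 had the smallest p, with a difference of 0.77 log2 units (SE 0.25, limma p 0.0122, adjusted p 0.400), and was the 1 member of 5 under an unadjusted limma p of 0.05, against 1331 of 14094 genes. Lef1 differed by 1.17 (adjusted p 0.746), Sox4 by 0.86 (0.698), Fgf5 by 0.51 (0.842) and Otx2 by -0.52 (0.804). Without c.del replicate 1 the Lef1 difference was -0.84 and the Otx2 difference 0.03. Without c.del replicate 2 the Sox4 difference was -0.21 and the Fgf5 difference -0.01. The median difference of all genes was 0.04, 0.08 and 0.09 in these 3 comparisons, which share the F121-9 libraries. No member passed between abc.del and ab.del, where 0.0% of genes passed (132 genes under an unadjusted limma p of 0.05, and 0 by edgeR and 0 by DESeq2).

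Libraries were also compared without a test. In abc.del, 2 members (Lef1 and Sox4) lay wholly above F121-9, where 29.0% of all genes did. In ab.del there were 3 (Otx2, Fgf5 and Sox4), against 22.7% of genes, and in c.del 1 (Cdh2), against 22.5%. No member lay wholly below F121-9 in these groups, against 24.9%, 18.3% and 16.5% of genes. No member had its abc.del libraries wholly on one side of its ab.del libraries, where 8.72% of genes lay higher and 14.9% lower.

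Lef1 passed once the deposit block entered the fit. With the block as a covariate the Lef1 difference from F121-9 was 1.70 in abc.del (SE 0.40, limma adjusted p 0.0453), 2.37 in ab.del (SE 0.44, adjusted p 0.0370) and 2.73 in c.del (SE 0.44, adjusted p 0.0204). It was the 1 member of 5 to pass in each, where 4.76%, 1.43% and 1.47% of all genes passed. The abc.del and F121-9 libraries are all in the first block, and fitted alone they gave the same 1.70 with an adjusted p of 0.0138 (background 4.25%). The block term in this fit comes only from the ab.del and c.del pairs, whose first-block libraries were the high ones. Part of the gap within those pairs is thus added to the ab.del and c.del differences. With no F121-9 library in the second block, those differences and their p-values are extrapolations. In the fit of the 12 lettered libraries the Lef1 block term was -1.15 (SE 0.75, limma adjusted p 0.284). Over all libraries the first block had a Lef1 median of 41.5 CPM and the second 10.9 CPM, but bc.del, in the first block, had 4.91 CPM and ac.del, in the second, 77.6 CPM. The neural marker Nes had 0.841 to 2.35 CPM in the first block and 4.74 to 21.4 CPM in the second. The neural markers Tubb3 (2.09 to 5.23 against 2.10 to 11.9 CPM) and Pax6 (0.503 to 3.74 against 0.837 to 10.8 CPM) overlapped between the blocks. Their part in the Lef1 values, and what the blocks stand for, was not tested.

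**Figure D4:**
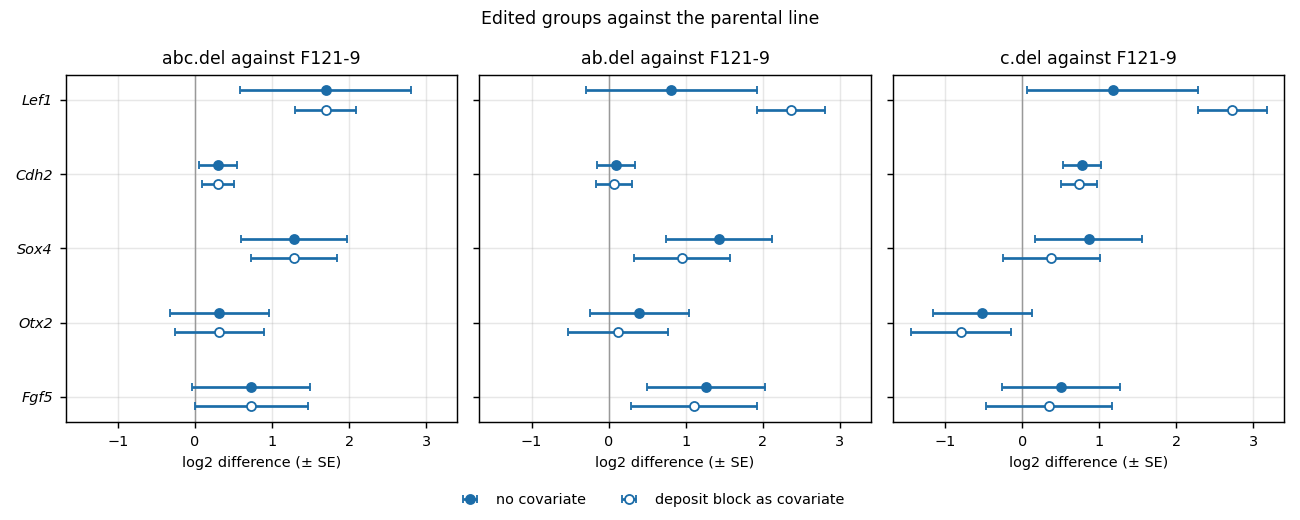
Log2 difference from F121-9 with its SE for the 5 tested genes in abc.del, ab.del and c.del, without a covariate (filled) and with the deposit block as a covariate (open). With the covariate, Lef1 moves from 0.81 to 2.37 in ab.del and from 1.17 to 2.73 in c.del and its SE narrows, while in abc.del its difference stays at 1.70. The block term comes only from the ab.del and c.del pairs.

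The 12 libraries named only by lettered sites were also fitted with one term per deleted site. No member passed for site a (background 0.0142%), site b (0.0%) or site c (0.0%), nor did one pass by edgeR or DESeq2. With the deposit block as a covariate no member passed for site a (background 0.0426%), site b (0.0213%) or site c (0.0%) either. In that fit Lef1 differed by 1.17 (limma adjusted p 0.580), -0.51 (0.887) and 0.86 (0.864). Sox4 differed by 1.18 log2 units between libraries with and without the site a deletion (SE 0.48, limma p 0.0290, adjusted p 0.524), where the median gene differed by 0.10. Otx2 differed by 1.16 for the site b deletion (SE 0.42, limma p 0.0159, adjusted p 0.941), against a median of -0.10. Cdh2 differed by 0.35 for the site c deletion (SE 0.20, limma adjusted p 1.00). Over all genes 1246, 717 and 459 had an unadjusted limma p under 0.05 for sites a, b and c, with 2, 0 and 0 genes called by edgeR and 160, 9 and 3 by DESeq2. Between the deposit blocks, with the sites in the fit, 0 of 5 members passed where 24.6% of genes did, 17.6% higher in the second and 6.99% lower; Cdh2 differed by 0.47 (SE 0.17, limma adjusted p 0.0582) and Lef1 by -1.15 (SE 0.75, adjusted p 0.284). Without c.del replicate 1, Cdh2 passed at 0.51 (limma adjusted p 0.0477).

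Of the 40 pairs of a tested member and a single-library group, 14 were at least 2-fold from the F121-9 mean on the log2(CPM + 0.1) scale and outside its range, 6 higher and 8 lower. Of all such gene and library pairs 20.5% were, 12% higher and 8.56% lower. Lef1 was higher in 680kinv and ac.del and lower in a.del, bc.del and 4k.b.c. Otx2 was higher in bc.del and lower in a.del and 4k.b.c, and Fgf5 was higher in ac.del and b.del and lower in 680kinv and bc.del. The bc.del value of Fgf5 is 0 reads. With the limit of 3 reads in its place it is lower by 1.87-fold only, counting error aside, so that pair passes through the scale used. Sox4 was higher in a.del and lower in bc.del, and Cdh2 was past the fold in none. In ac.del, Otx2 (0.586 CPM) lay inside the F121-9 range, as did Lef1 (16.7 CPM) in b.del. bc.del was low for Lef1, Fgf5 and Sox4 and had the highest Otx2. There is no test with 1 library, and 6 of these 8 groups are in the second block while F121-9 is in the first, so edit and block cannot be told apart there.

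Between the parental copies, Lef1 alone passed. Over the 16 libraries the 129 copy was below the cast copy by 1.12 log2 units (SE 0.20, limma adjusted p 0.000201), with cast higher in 14 of 16. That is 1 of 5 members, where 46.0% of all genes passed, 24.1% higher and 21.8% lower on 129. Within the F121-9 libraries alone (n = 2) the difference was -2.41 (limma adjusted p 3.8e-06). That p borrows spread from other genes and does not measure the spread between cultures, which the labels do not state. Over the 16 libraries, after centring each copy on its chromosome, the difference was -1.03 (limma adjusted p 0.000168). Without c.del replicate 1 and ac.del it was -1.06 (limma adjusted p 0.00102). Otx2 differed by -0.64 (limma adjusted p 0.0827, cast higher in 12 of 16), Sox4 by -0.35 (0.213, 10 of 16), Fgf5 by -0.20 (0.564, 7 of 16) and Cdh2 by 0.01 (0.880, 9 of 16). Otx2 passed when any one of 3 libraries was left out: -0.74 without ab.del replicate 1, -0.76 without F121-9 replicate 1 and -0.75 without b.del. Sox4 passed without c.del replicate 1 and ac.del together (-0.59, limma adjusted p 0.0144).

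**Figure D5:**
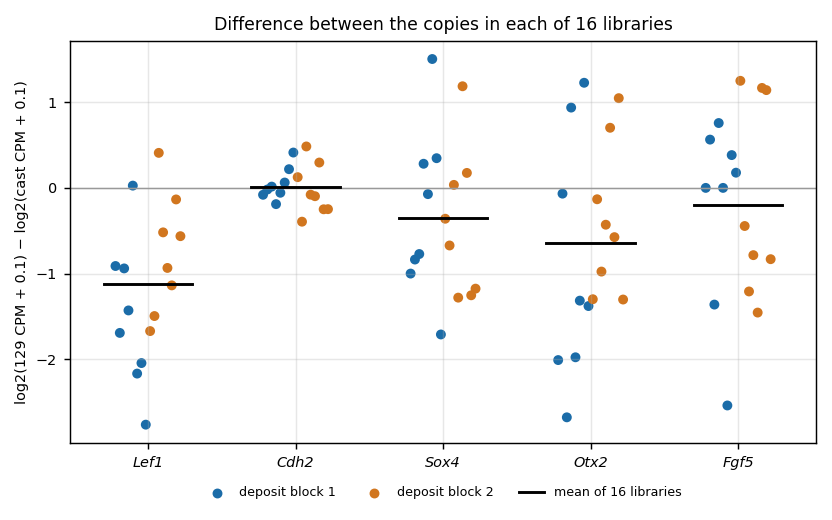
Log2 difference between the 129 and cast copies (each CPM + 0.1) in each library for the 5 tested genes, coloured by deposit block, with the mean as a black line. Lef1 lies below 0 in 14 of 16 libraries with a mean of -1.12, Cdh2 stays close to 0, and the low-count genes Otx2, Fgf5 and Sox4 scatter on both sides; the 2 libraries with 0 Fgf5 reads are drawn at 0.

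The members did not follow one another. Over the 16 libraries Pearson's r of log2 values between pairs of tested members ran from -0.29 (Otx2 and Sox4) to 0.47 (Fgf5 and Sox4), and Lef1 and Otx2 had 0.11. The genes most like Lef1 among those with a mean of at least 1 CPM were Phf21a (r = 0.91), Rev3l (0.91) and Eml4 (0.90). Rev3l, the catalytic subunit of DNA polymerase zeta, ran from 156 CPM in 4k.b.c to 331 CPM in c.del replicate 1, the same extremes as Lef1. Genes like Sox4 included Cdc6 (0.89), a licensing factor of replication origins, and Rapgef1 (0.87). Those most like Cdh2 were Cachd1 (0.80), Pid1 (0.79) and Gabrb2 (0.79). These values share libraries and depth and are the highest over all genes at that level.

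Other genes of the transition gave no call in these comparisons. Of 22 further formative and primed genes 17 were tested, and limma called 0 higher and 0 lower in any comparison among the 4 groups. Such calls were rare over all genes too, at most 0.22% in any of these comparisons. A count of 0 in a short list, here and below, thus says little. At an unadjusted limma p of 0.05, 1445, 1099 and 1331 of 14094 genes were called in abc.del, ab.del and c.del. Of the 17, 1 was higher and 1 lower in abc.del and in ab.del, and 2 higher and 1 lower in c.del. Their most abundant members were Tcf7l1, the repressor partner in Wnt signalling, with 428 CPM (311 to 579 over libraries), and Etv5, an ETS factor, with 359 CPM (292 to 520). The median log2 difference of that list from F121-9 was 0.36 in abc.del, 0.45 in ab.del and 0.41 in c.del. Those of the 5 tested members were 0.73, 0.81 and 0.77, each the value of a single gene (Fgf5, Lef1 and Cdh2). For all genes the medians were 0.04, 0.08 and 0.09. Higher medians were not particular to formative genes. ERK targets had 1.16, 1.08 and 1.47, core genes 0.37, 0.59 and 0.67, and cadherin and mesenchymal genes 0.71, 0.56 and 0.42. Wnt genes had 0.56, 0.17 and 0.41, and naive genes 0.26, 0.09 and 0.05. Of 13 naive genes 12 were tested with 0 calls, led by Esrrb (741 CPM) and Tfcp2l1 (514 CPM); Klf2 was listed at 0 in all libraries. The summed naive list ran from 1927 to 2646 CPM, the 22 further formative and primed genes from 913 to 1326 CPM, and the 7 members from 30.6 to 184 CPM. These lists differ in gene number and length, so their sums do not compare the states. Of the core factors Sall4 (45.6 CPM) and Sox2 (23.2 CPM), and of 11 tested Wnt genes, led by the ubiquitin ligase Znrf3 (233 CPM) and Apc (174 CPM), none passed. Nor did any of 4 tested ERK targets, led by the feedback inhibitors Spred1 (140 CPM) and Spry4 (16.8 CPM), or of 7 tested cadherin and mesenchymal genes, led by Fn1 (404 CPM) and Cdh1 (132 CPM). At an unadjusted limma p of 0.05, against the counts over all genes given above, some were called. Of the 7 cadherin and mesenchymal genes 4 were higher and 1 lower in abc.del, 4 higher in ab.del and 2 higher in c.del. Of the 11 Wnt genes 2, 1 and 1 were higher in abc.del, ab.del and c.del, 1 core gene was higher in abc.del, 2 ERK targets were higher in c.del, and no naive gene was under that p.

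Summed by list, markers of other cell types had fewer CPM than the naive genes. The lists differ in gene number and length, so these sums do not measure the share of other cell types. By the same measure the core list had 46.6 to 131 CPM, with Pou5f1 at 20.1 CPM (8.95 to 44.6). Over libraries the summed mesendoderm list had 0.391 to 3.80 CPM, primitive endoderm 5.63 to 19.6, neural 5.05 to 38.9, trophoblast 7.31 to 32.5 and fibroblast 0 to 1.65 CPM. The leading genes were Eomes (0.990 CPM) and T (0.348) for mesendoderm, Dab2 (8.87) and Gata4 (0.908) for primitive endoderm, Nes (6.57) and Tubb3 (4.74) for neural cells, Tfap2c (14.6) and Krt8 (0.478) for trophoblast, and Thy1 (0.612) and Postn (0.0454) for fibroblasts. None of these lists had a call among the 4 groups, where at most 0.22% of all genes had one. With 1 to 5 genes tested per list, that absence says little. The part of these markers in the differences described above was not tested.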

How the data were processed

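Per the labels' protocols, 300 ng of bromouridine-labelled RNA gave strand-specific libraries. Per the submitters' processing notes, Bowtie2, bedtools and mm10 were used, with versions not given in the sources used here. Reads were divided, per the file headers, by homozygous SNPs between cast and 129 into those supporting the reference (129) and the variant (cast). The values deposited by the authors are CPM: each of 32 columns sums to 1000000 over 42497 lines, although the table is named for RPKM, which the design assumed. Lines of the same gene can overlap, so a read can be counted more than once in that total. In 680kinv the 129 column held 20250205 counts over all lines and 9292300 over 1 line per gene. CPM here are thus lower than reads per 1000000 over 1 line per gene. Every value was a whole number of reads (100% within 0.01), and counting intervals, edgeR and DESeq2 took these reads. The test on log2 values was kept as planned.

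The widest line per symbol was used, without 6 segments drawn by the authors. Values were log2(mean of both copies + 0.1), and a fold on that scale understates the change of low genes. Genes with a mean of at least 0.2 CPM entered limma 3.58.1 (R 4.3.3; eBayes with a trend, two-sided tests, Benjamini-Hochberg); edgeR 4.0.16 and DESeq2 1.42.0 were alternatives. The limma fits for abc.del, site a and the deposit block were run on simulated counts with the same spread for every gene. The other fits were not simulated. The spread between replicates here was not modelled, so this checks the code and not the error rates in these data. The difference between copies was tested within libraries. Depth limits precision for Otx2, Fgf5, Sall2 and Pou3f1. Counting intervals are exact at 95% and, like Wilson intervals, cover counting error only. The members, lists and tests were chosen with earlier results of these data known. Named genes were the members, the 3 genes most like each member with a mean of at least 1 CPM (1 of them is not reported here), and, for each other list, members that passed or else the 2 with the highest mean.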

Additional observations from a re-analysis of the deposited data

How the results depend on the processing

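Of 644 values of single members under alternatives, 612 kept direction and side of the threshold, 23 changed sign, 9 passed where the reported value did not, and none was lost. Only Lef1 between the copies had passed in the main fits. Few values could thus be lost, and most that kept their side had not passed to begin with. The number of members passing went from 0 to 1 (Lef1) with the deposit block as a covariate for each of the 3 edited groups against F121-9, and with only the groups compared in abc.del. The cause was not tested. Between the blocks it ranged from 0 to 1 on leaving out 1 library, and between the copies from 1 to 2, with 2 also without c.del replicate 1 and ac.del together. With a pseudocount of 1, 8 of the single-library pairs were past the fold instead of 14. Lef1 between the copies passed in all 28 alternatives (-2.41 to -1.01). The other scalings, filters and tools tried moved no member across the threshold. Over all genes limma called 31, 7 and 7 in abc.del, ab.del and c.del, edgeR 18, 11 and 8, and DESeq2 358, 187 and 222.

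Sign changes were all of values that had not passed. On the 129 copy alone Otx2 was -0.46 in abc.del, Cdh2 -0.12 in ab.del and Fgf5 -0.74 in c.del; on the cast copy alone Otx2 was 0.0964 in c.del. Cdh2 in ab.del was -0.0132 with median centring, -0.00721 with chromosome centring, -0.0334 with edgeR and -0.0314 with DESeq2. On leaving out 1 library, the lowest and highest values in abc.del were -0.25 and 0.88 for Otx2 and -0.29 and 1.75 for Fgf5. In ab.del they were -0.29 and 1.91 for Lef1 and -0.13 and 0.32 for Cdh2. In c.del they were -1.07 and 0.0302 for Otx2, -0.0122 and 1.03 for Fgf5, -0.84 and 3.19 for Lef1, and -0.21 and 1.94 for Sox4. Between the copies Fgf5 was 0.28 in F121-9 alone and 0.0576 without c.del replicate 1 and ac.del, and Cdh2 was -0.0572 with chromosome centring and from -0.019 to 0.0396 on leaving out 1 library. The setting without c.del replicate 1 and ac.del was added after seeing the data. No paired analysis was possible because the replicate numbers of the edited groups are in accession order and the labels number only the F121-9 libraries. Depth limits Fgf5 and Otx2, which had 0 and 1 reads in their lowest libraries.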

Other observations

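Spry4, a feedback inhibitor of ERK signalling, varied widely. It had 4.98 and 1.44 CPM in F121-9, 10.9 and 17.6 CPM in abc.del, 4.27 and 29.9 CPM in ab.del, and 7.41 and 50.4 CPM in c.del. It was lowest in F121-9 replicate 2 and highest in c.del replicate 2. No ERK target passed against F121-9, with Spry4 at 2.80 log2 units in c.del (SE 1.05, limma adjusted p 0.477). Between the deposit blocks, where 17.6% of all genes passed as higher in the second and 6.99% as lower, 3 of 4 tested ERK targets were higher in the second block, Spry4 by 2.56 log2 units (SE 0.31, limma adjusted p 0.000363). Of the other lists, 6 of 12 naive genes, 3 of 3 core genes and 6 of 17 further formative genes were higher in the second block, and 1 of those 17 was lower. Of 11 Wnt genes 1 was higher and 1 lower, and 2 of 7 cadherin and mesenchymal genes were higher. Of the markers of other cell types, 2 of 3 neural, 1 of 3 mesendoderm and 1 of 2 trophoblast genes were higher, and 0 of 5 primitive endoderm genes and 0 of 1 fibroblast gene passed.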
